A study of Homo sapiens with 4 samples.

Results

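AP-1 is a family of dimeric transcription factors, and the RNA of its subunits was measured by sequencing in FaDu, a widely used human cell line of hypopharyngeal squamous carcinoma. The members were 9 genes listed by name: the FOS family genes FOS, FOSB, FOSL1 and FOSL2, the JUN family genes JUN, JUNB and JUND, and the related genes ATF2 and BATF3. All 9 were found among the 60649 gene rows of the deposited count table, and all 9 passed the filter on low counts that left 18771 genes for the test. One group overexpressed TINCR-HA-FLAG, which is TINCR with HA and FLAG tags, and the other carried an empty vector, with 2 libraries per group. All cells were grown in MEM alpha medium with fetal bovine serum. The series calls the replicates technical, so p-values measure the spread between these libraries only. No source used here gives the promoter of the construct or says whether the cells were a clone or a pool. In RNA from whole cultures, fewer cells of a type and less RNA per cell cannot be told apart.

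AP-1 proteins share a basic region that contacts DNA and a leucine zipper that holds the dimer together. FOS proteins pair with JUN proteins and not with each other, whereas JUN proteins can also pair among themselves and with ATF proteins. FOS, FOSB, JUN and JUNB are immediate early genes, switched on within minutes of a growth factor signal, while FOSL1, which encodes FRA-1, rises later and is kept high by sustained ERK signalling. In squamous carcinoma cells FRA-1 is known for its part in migration and invasion.

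TINCR had 1921 and 2943 counts with TINCR-HA-FLAG, against 68 and 64 counts with the empty vector (log2 fold change 4.93, SE 0.17, edgeR adjusted p = 7.2e-07). Total counts were 18151424 and 22331602 with TINCR-HA-FLAG and 17069533 and 17315648 with the empty vector. At that depth 3 counts correspond to 0.135 to 0.177 CPM, the counts scaled to a common library size, and all members but BATF3 had at least 77 counts in every library. All 8 squamous epithelial markers were tested, 7 had a negative log2 fold change and the median was -0.12. Among them the basal keratin gene KRT14 was called lower (log2 fold change -1.08, SE 0.15, edgeR adjusted p = 0.014). They had a summed level of 4572 to 5507 TPM, a level scaled by gene length, with TINCR-HA-FLAG and 5503 to 6140 TPM with the empty vector. The 10 fibroblast and leukocyte markers summed to 22.06 to 26.77 TPM with TINCR-HA-FLAG and 23.54 to 24.32 TPM with the empty vector. Of these 10 markers 6 were tested and 0 were called by edgeR or DESeq2, beside 0.549% of all genes tested called by edgeR. Beside 10.2% of all genes tested, 1 of the markers had an unadjusted p under 0.05. That was the collagen gene COL1A1, with 618 and 746 counts with TINCR-HA-FLAG and 461 and 407 counts with the empty vector (log2 fold change 0.40, edgeR adjusted p = 0.259). Among the leukocyte markers CD14 had 105 to 201 counts per library, while CD3E and CD79A had at most 4. The part of these marker levels in the results was not tested.

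FOSL1 fell with TINCR-HA-FLAG, and it was the 1 member of 9 that passed the test. Over all genes tested 0.549% passed at an adjusted p under 0.05, and 0.0959% passed as lower. The members were chosen with earlier results of these data known, so their count is not independent evidence. The other 8 members had log2 fold changes between -0.43 and 0.18, 4 of them negative, with a median of -0.004. The median over all 9 members was -0.03, beside 0.004 over all genes tested. Groups did not overlap for 2 members, FOSL1 and FOS, beside 39.6% of all genes tested.

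FOSL1 and its 3 FOS relatives encode the same kind of basic region, and the coding stretch is shown because their reads must be told apart for the counts to be read gene by gene. Each line holds 60 coding bases from the GENCODE 29 transcripts (GRCh38), read 5′ to 3′, with capitals where a base differs from FOSL1. FOSL1 lies on chromosome 11, FOSL2 on chromosome 2, FOS on chromosome 14 and FOSB on chromosome 19.
FOSL1: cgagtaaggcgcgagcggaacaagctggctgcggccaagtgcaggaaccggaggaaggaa
FOSL2: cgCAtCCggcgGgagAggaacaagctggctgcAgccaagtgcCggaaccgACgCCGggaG
FOS: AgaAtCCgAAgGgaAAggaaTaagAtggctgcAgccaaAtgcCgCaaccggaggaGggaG
FOSB: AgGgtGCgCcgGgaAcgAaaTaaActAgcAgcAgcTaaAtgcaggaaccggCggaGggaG
In this stretch FOSL2 differs from FOSL1 at 14 bases, FOS at 17 and FOSB at 18. Over whole transcripts the longest identical run between FOSL1 and another member was 16 bases, shared with FOSL2. The longest run between any pair of members was 22 bases, between FOSB and ATF2. The processed pseudogene FOSL1P1 on chromosome 4 shares a run of 71 bases with FOSL1. It had 9 and 7 counts with TINCR-HA-FLAG and 8 and 16 counts with the empty vector, far below the counts of FOSL1 itself.

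FOSL1 (ENSG00000175592.9, GRCh38 chromosome 11, 65892049 to 65900573, minus strand, protein-coding) had 1187 and 1793 counts with TINCR-HA-FLAG, against 2073 and 2240 counts with the empty vector. Scaled to library size this was 64.5 and 80.8 CPM with TINCR-HA-FLAG and 121.0 and 132 CPM with the empty vector. Both TINCR-HA-FLAG libraries lay below both empty vector libraries, and the TINCR-HA-FLAG libraries were the further apart. The mean was 72.6 ± 11.6 CPM with TINCR-HA-FLAG and 127 ± 7.86 CPM with the empty vector (SD, n = 2 each). The log2 fold change was -0.80 (SE 0.13, 95% interval -1.08 to -0.52, edgeR adjusted p = 0.0246), which puts the level at 57.5% of that with the empty vector. Without each library in turn the log2 fold change was -0.98 to -0.64. A group left with 1 library takes its spread from the other group, so only this size is given. The call held with DESeq2 (adjusted p = 3.65e-05). When 37168 genes were tested, without the filter, it was lost at a log2 fold change of -0.795 (edgeR adjusted p = 0.0778).

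**Figure D1:**
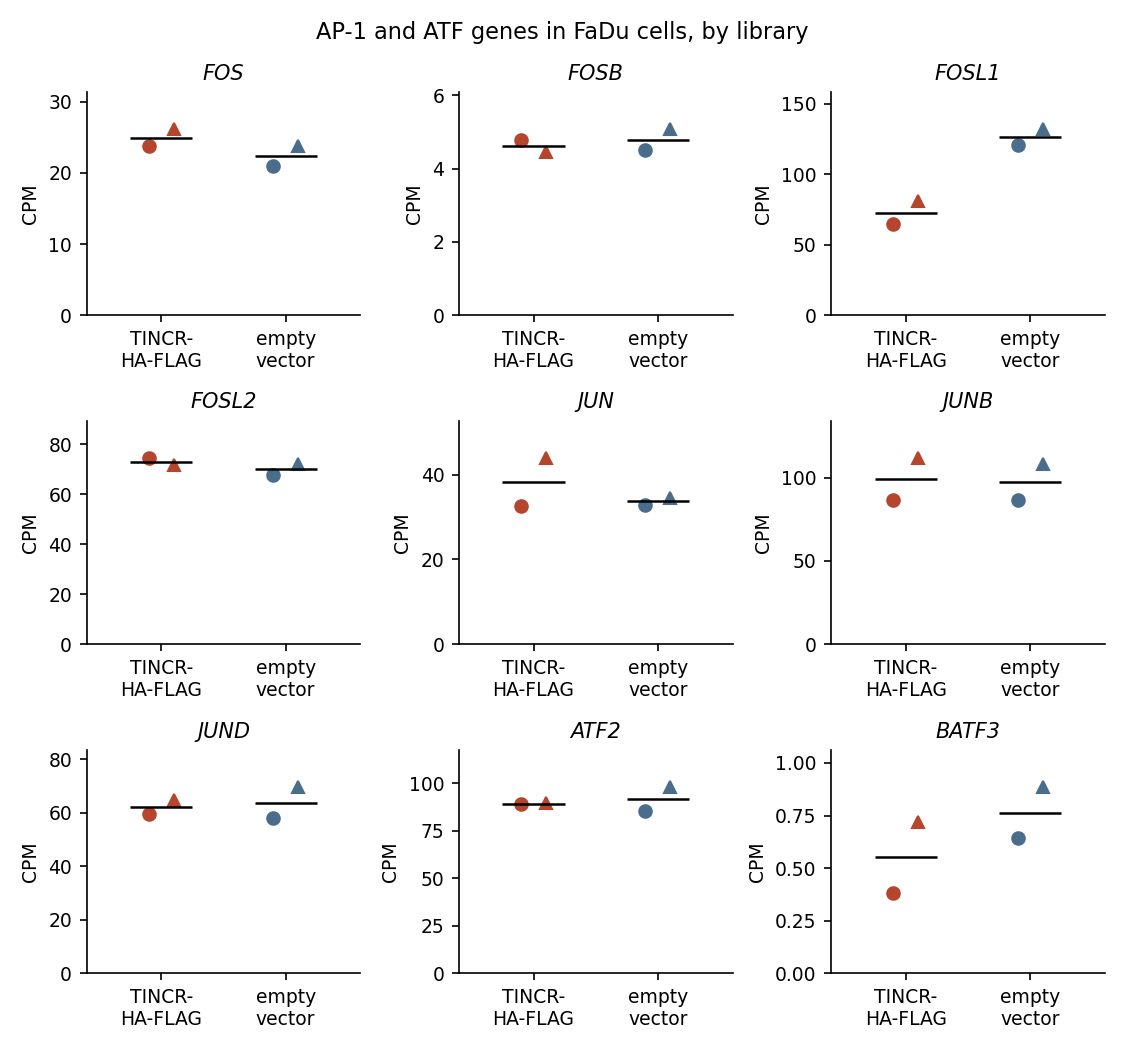
Level of each member in every library, in CPM (linear axis from 0, a scale of its own per gene). TINCR-HA-FLAG libraries are on the left and empty vector libraries on the right of each panel, circles are replicate 1, triangles replicate 2 and bars the mean of 2 libraries. FOSL1 sits at 64.5 and 80.8 CPM with TINCR-HA-FLAG, below 121.0 and 132 CPM with the empty vector.

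The genes around FOSL1 were examined because of its value. Within 500 kb on chromosome 11, 53 other genes were tested, and 0 were called by edgeR or by DESeq2, with a smallest edgeR adjusted p of 0.187. Their log2 fold changes ran from -1.29 to 0.68 with a median of -0.06. Of the 53, 33 were negative, beside 49.3% of all genes tested. An unadjusted p under 0.05 was found for 5 (9.43%, set against 10.2% over the whole table).

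FOSL2, which encodes the related subunit FRA-2 (ENSG00000075426.12, chromosome 2, 28392448 to 28417312, plus strand), had 74.4 and 71.6 CPM with TINCR-HA-FLAG and 67.8 and 72.0 CPM with the empty vector. The groups overlapped. The log2 fold change of 0.06 had a 95% interval of -0.16 to 0.29, which does not reach the interval of FOSL1.

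FOS, the founding member of the family (ENSG00000170345.10, chromosome 14, 75278774 to 75282230, plus strand), had 23.7 and 26.1 CPM with TINCR-HA-FLAG and 21.0 and 23.7 CPM with the empty vector. The higher empty vector library lay just under the lower TINCR-HA-FLAG library. The log2 fold change was 0.16 (SE 0.13, 95% interval -0.14 to 0.45, edgeR adjusted p = 0.772), so FOS did not pass the test.

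FOSB (ENSG00000125740.14, chromosome 19, 45467995 to 45475179, plus strand) was the lowest of the FOS family. It had 4.78 and 4.46 CPM with TINCR-HA-FLAG and 4.49 and 5.07 CPM with the empty vector, and the groups overlapped. At 77 to 99 counts per library its log2 fold change of -0.05 had a wide 95% interval, -0.59 to 0.48.

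JUN, the classic partner of FOS proteins (ENSG00000177606.8, chromosome 1, 58780788 to 58784327, minus strand), had 32.6 and 43.9 CPM with TINCR-HA-FLAG and 32.9 and 34.6 CPM with the empty vector. TINCR-HA-FLAG replicate 2 stood above the other libraries, which lay close together. The log2 fold change of 0.18 (SE 0.15, 95% interval -0.14 to 0.51) did not pass the test (edgeR adjusted p = 0.755), and it was -0.0551 without that library.

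JUNB (ENSG00000171223.6, chromosome 19, 12791496 to 12793315, plus strand) encodes a subunit that activates transcription less strongly than JUN at many sites. It had 86.5 and 112 CPM with TINCR-HA-FLAG and 86.5 and 108 CPM with the empty vector. Replicate 2 was the higher library in both groups, by 1.29-fold with TINCR-HA-FLAG and 1.25-fold with the empty vector, while the log2 fold change between groups was 0.03 (SE 0.15). The gene overlaps exons of HOOK2 on the opposite strand over 259 bases, and without a stated strand setting reads there cannot be assigned to either gene. HOOK2 had 398 and 462 counts with TINCR-HA-FLAG and 467 and 323 counts with the empty vector, against 1482 to 2475 for JUNB.

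JUND (ENSG00000130522.6, chromosome 19, 18279760 to 18281622, minus strand), the JUN family member least dependent on growth stimulation, had 59.6 and 64.8 CPM with TINCR-HA-FLAG and 57.9 and 69.5 CPM with the empty vector. The TINCR-HA-FLAG libraries lay inside the range of the empty vector libraries, and the log2 fold change was -0.03 (SE 0.12, 95% interval -0.30 to 0.23).

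ATF2 (ENSG00000115966.17, chromosome 2, 175072250 to 175168382, minus strand), which pairs with JUN and is activated by stress kinases, had 89.0 and 89.6 CPM with TINCR-HA-FLAG and 85.3 and 98.0 CPM with the empty vector. Its log2 fold change was -0.04 (SE 0.11, 95% interval -0.28 to 0.20), and the groups overlapped. An antisense gene, AC096649.1, shares 246 exon bases with ATF2 and had at most 2 counts in any library.

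BATF3 (ENSG00000123685.9, chromosome 1, 212686418 to 212699985, minus strand), a partner of JUN proteins best known from dendritic cells, had 7 and 16 counts with TINCR-HA-FLAG and 11 and 15 counts with the empty vector. The counts overlapped, and the 95% interval of the log2 fold change, -1.74 to 0.88, was so wide that a change as large as that of FOSL1 would not have been detectable at this depth.

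**Figure D2:**
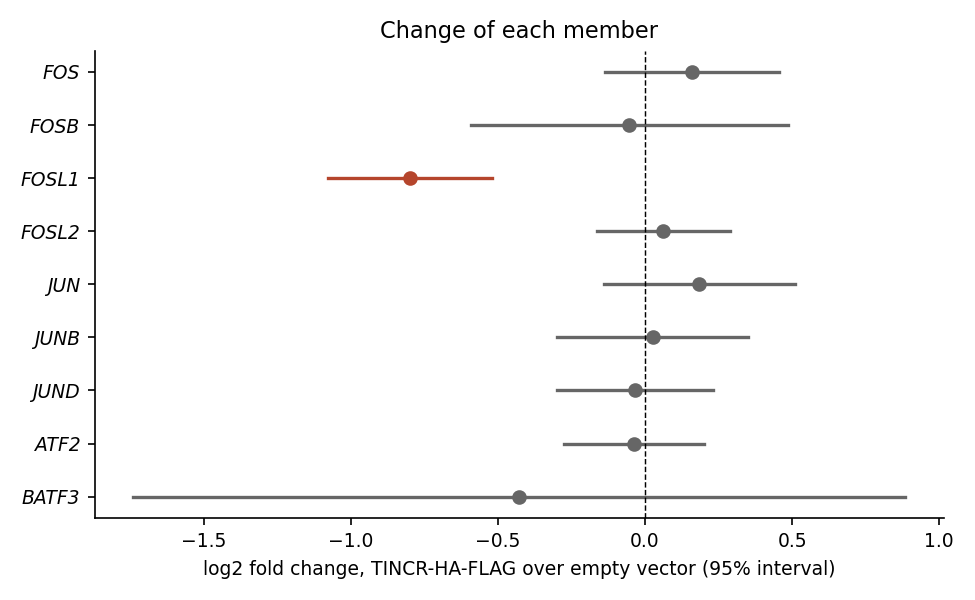
Log2 fold change of each member, TINCR-HA-FLAG over empty vector, with its 95% interval from the edgeR fit (points and lines). FOSL1, in red, is the member that passed the test, with an interval of -1.08 to -0.52, and the intervals of the other 8 members include 0.

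Levels of different genes were compared per length, as TPM from exon lengths of GENCODE 29. With TINCR-HA-FLAG the order of mean TPM was JUNB (142), FOSL1 (101), JUND (87.3), ATF2 (40.6), JUN (28.3), FOSL2 (26.6), FOS (20.1), FOSB (2.17) and BATF3 (0.531). With the empty vector FOSL1 came first at 176 TPM, followed by JUNB (140.0), JUND (89.5), ATF2 (41.7), FOSL2 (25.6), JUN (25.0), FOS (18.1), FOSB (2.25) and BATF3 (0.735). Taking all 4 libraries, the TPM ranges of the neighbours JUNB and FOSL1, FOSL1 and JUND, and JUN and FOSL2 overlapped. The other neighbours did not. These ranges pool both groups. With TINCR-HA-FLAG FOSL1 had 89.2 and 112 TPM and JUNB 124 and 160 TPM. With the empty vector FOSL1 had 171 and 180 TPM and JUNB 127 and 153 TPM. In neither group did FOSL1 and JUNB overlap. FOSL1 and JUND, and JUN and FOSL2, overlapped with TINCR-HA-FLAG only.

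FOSL1 had the largest share of the FOS family level per length in every library. Its share of the summed TPM of the 4 FOS genes was 64.8% and 69.4% with TINCR-HA-FLAG, against 79.3% and 79.3% with the empty vector. On reads as counted, with no scaling by length, the mean share was 41.3% with TINCR-HA-FLAG and 56.6% with the empty vector. The share was 12.2 percentage points lower with TINCR-HA-FLAG, and the groups did not overlap (exact two-sided permutation test, p = 0.333, the smallest that 2 libraries against 2 allow). The shares of FOSL2 were 19.7% and 16.2% with TINCR-HA-FLAG and 11.7% and 11.4% with the empty vector, and those of FOS were 13.9% and 13.1% with TINCR-HA-FLAG and 8.02% and 8.29% with the empty vector. The shares of a library add up to the whole, so those of FOSL2 and FOS rise when FOSL1 alone falls. Neither FOSL2 nor FOS passed the test. The summed FOS family level was 138 and 161 TPM with TINCR-HA-FLAG and 216 and 227 TPM with the empty vector. The ratio of FOSL1 to FOSL2 TPM was 3.29 and 4.28 with TINCR-HA-FLAG and 6.77 and 6.96 with the empty vector.

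In the JUN family JUNB led, with 53.6% and 56.5% of the summed TPM with TINCR-HA-FLAG and 54.1% and 55.8% with the empty vector. JUN made up 10.4% and 11.4% with TINCR-HA-FLAG and 10.6% and 9.17% with the empty vector, ranges that overlap (exact two-sided permutation test, p = 0.667). The ratio of FOSL1 to JUN TPM was 3.71 and 3.45 with TINCR-HA-FLAG and 6.9 and 7.16 with the empty vector.

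**Figure D3:**
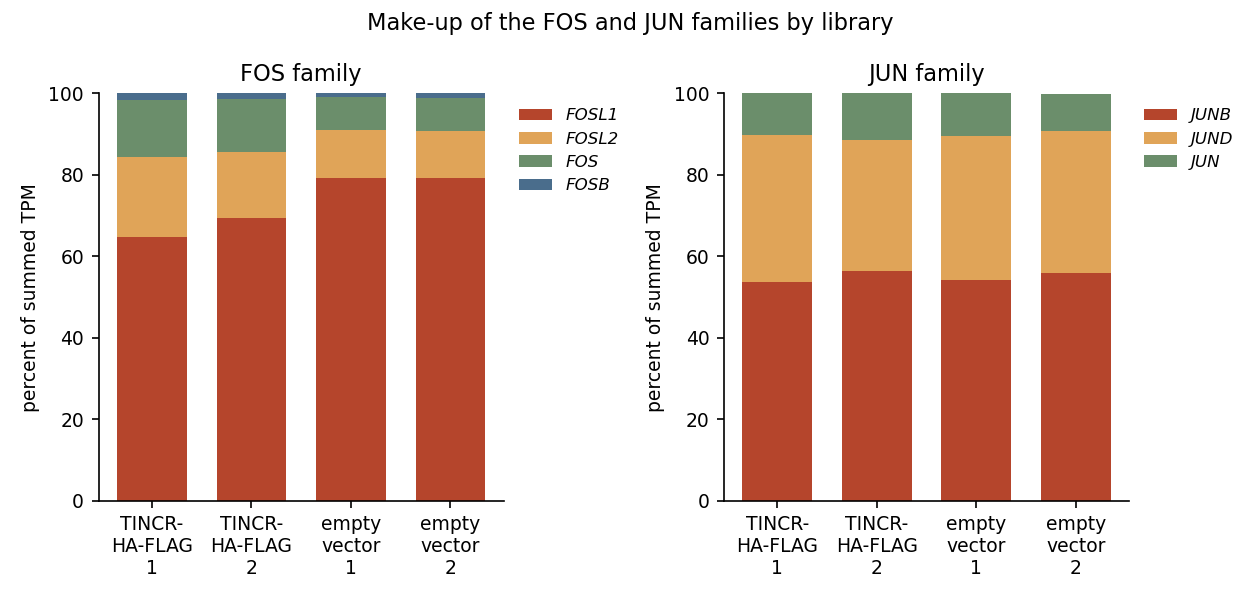
Share of each gene in the summed TPM of the FOS family (left) and the JUN family (right), in percent, with 1 stacked bar per library. The FOSL1 segment is 64.8% and 69.4% with TINCR-HA-FLAG and 79.3% in both empty vector libraries, while the JUNB segment stays between 53.6% and 56.5%.

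By the distance between centred log2 CPM profiles over the 4 libraries, the genes most like FOSL1 among 11910 candidates were ACKR3, IGFL1, SLCO4A1 and SFN. ACKR3, which encodes a scavenging chemokine receptor, had 13.6 and 17.3 CPM with TINCR-HA-FLAG and 25.7 and 28.1 CPM with the empty vector. SFN, which encodes the epithelial 14-3-3 protein sigma, had 142 and 190 CPM with TINCR-HA-FLAG and 253 and 291 CPM with the empty vector. The log2 fold changes of the 4 genes lay between -0.82 and -0.71. They were picked for likeness to FOSL1 in these same libraries, so values near that of FOSL1 follow from the choice. None of the 4 passed the test in edgeR (adjusted p from 0.0543 to 0.089).

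AP-1 dimers bind the letters TGANTCA, and dimers with ATF proteins bind TGACGTCA or the variant TGACATCA. Promoters were available for 6 of the 9 members in RefSeq (GRCh38.p14, 250 bases before to 50 after the start), and FOSL1, ATF2 and BATF3 had no entry. TGANTCA reads the same on both strands, as does TGACGTCA, and TGACATCA was searched on both. The 3 members with a match are shown, 5′ to 3′, with the match in capitals.
JUN: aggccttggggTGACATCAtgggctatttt
JUND: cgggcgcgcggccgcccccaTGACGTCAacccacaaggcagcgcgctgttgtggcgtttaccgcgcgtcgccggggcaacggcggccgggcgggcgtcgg
FOSL2: gtgccattgtagTGACTCAtctcgggcaga
The JUN stretch is chr1:58784096-58784125 on the minus strand, upstream of the RefSeq start and inside an exon of JUN in GENCODE 29. The JUND stretch is chr19:18281743-18281842 on the minus strand, upstream of the gene and outside its exons. The FOSL2 stretch is chr2:28392850-28392879 on the plus strand and spans the RefSeq start. Among 27305 genes with a promoter, 9.37% held TGANTCA, 2.25% TGACGTCA and 3.18% TGACATCA. None of these 3 genes passed the test, and a match is a description of the letters only.

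The kinases and factors upstream of AP-1 did not pass the test as single genes. Over all genes tested edgeR called 0.549%, and 10.2% had an unadjusted p under 0.05, so 0 calls in a list this short is near that share. In the MAP kinase cascade list 30 of 30 genes were tested and 0 were called by edgeR or DESeq2, with 3 at an unadjusted p under 0.05 and a median log2 fold change of 0.03. The RAS gene NRAS had 187 and 206 CPM with TINCR-HA-FLAG and 170 and 186 CPM with the empty vector. Of the 16 MAP kinase phosphatases and feedback inhibitors, all tested, 0 were called by either tool, 3 had an unadjusted p under 0.05 and the median was -0.06. DUSP7, an ERK phosphatase gene, had 91.9 and 116 CPM with TINCR-HA-FLAG and 138 and 141 CPM with the empty vector (log2 fold change -0.42, SE 0.12, edgeR adjusted p = 0.232). Without TINCR-HA-FLAG replicate 2, the log2 fold change of DUSP7 was -0.61. DUSP4, a further ERK phosphatase gene with the smallest p of the list, had 8.04 and 9.74 CPM with TINCR-HA-FLAG and 4.96 and 4.25 CPM with the empty vector (log2 fold change 0.95, SE 0.22, edgeR adjusted p = 0.122). Without TINCR-HA-FLAG replicate 1, the log2 fold change of DUSP4 was 1.08. DUSP6, also at an unadjusted p under 0.05, had 1.955 and 2.614 CPM with TINCR-HA-FLAG and 3.561 and 4.188 CPM with the empty vector. Its log2 fold change was -0.74 (SE 0.31, edgeR adjusted p = 0.441), opposite in sign to that of DUSP4. DUSP5, another ERK phosphatase gene, had 48.4 and 54.8 CPM with TINCR-HA-FLAG and 53.9 and 64.1 CPM with the empty vector.

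Relatives with the same DNA-binding fold and other immediate early genes were not called either. The shares over all genes tested were again 0.549% called by edgeR and 10.2% at an unadjusted p under 0.05. Of the 23 other bZIP genes 21 were tested, with 0 called by edgeR or DESeq2, 1 at an unadjusted p under 0.05 and a median of -0.04. ATF4, the effector of amino acid stress, had 310 and 362 CPM with TINCR-HA-FLAG and 369 and 403 CPM with the empty vector. ATF6B, an endoplasmic reticulum stress factor gene, had 137 and 152 CPM with TINCR-HA-FLAG and 137 and 138 CPM with the empty vector. Among 20 tested of 21 other immediate early genes, 0 were called by either tool, 3 had an unadjusted p under 0.05, and the median was 0.09. The survival gene MCL1 had 210 and 217 CPM with TINCR-HA-FLAG and 205 and 219 CPM with the empty vector. ZFP36L1, which encodes an RNA-decay factor, had 197 and 207 CPM with TINCR-HA-FLAG and 161 and 171 CPM with the empty vector (log2 fold change 0.29, SE 0.10, edgeR adjusted p = 0.363).

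Among genes reported elsewhere as AP-1 targets 7 fell and 27 did not pass the test in edgeR. Of 38 listed genes 34 were tested, 29 had a negative log2 fold change and the median was -0.31, beside 49.3% negative and a median of 0.004 over all genes tested. The 7 that passed were all lower, or 20.6% of those tested, beside 0.0959% called lower over all genes tested. Those 7 were known to be lower when the list was compiled, and the whole list was compiled with such results in view, so neither its count nor its direction is independent evidence.

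The targets called by edgeR were IL1A, IL1B, F3, ITGA6, VEGFA, EREG and CD44. DESeq2 called 8 targets lower, these and the keratin gene KRT6A, and 0 higher, beside 59 lower over all genes tested. KRT6A had a log2 fold change of -0.97 in DESeq2 (DESeq2 adjusted p = 0.0392) and -0.94 in edgeR (edgeR adjusted p = 0.113). The interleukin 1 gene IL1A had 8.58 and 9.42 CPM with TINCR-HA-FLAG and 22.6 and 19.6 CPM with the empty vector (log2 fold change -1.23, SE 0.16, edgeR adjusted p = 0.00819). Its relative IL1B had 15.2 and 14.5 CPM with TINCR-HA-FLAG and 32.0 and 31.3 CPM with the empty vector (log2 fold change -1.09, SE 0.13, edgeR adjusted p = 0.00473). In both genes the groups lay far apart, and both were called under every alternative run. The tissue factor gene F3 had 266 and 271 CPM with TINCR-HA-FLAG and 422 and 403 CPM with the empty vector (log2 fold change -0.62, edgeR adjusted p = 0.0375). The hemidesmosome integrin gene ITGA6 had 63.7 and 58.8 CPM with TINCR-HA-FLAG and 89.1 and 93.8 CPM with the empty vector (log2 fold change -0.58, edgeR adjusted p = 0.0465). For F3, ITGA6, VEGFA, EREG and CD44 the call was lost with no filter on low counts (edgeR adjusted p from 0.0693 to 0.146), while their log2 fold changes stayed between -0.62 and -0.55. F3 and CD44 also lost it without TINCR-HA-FLAG replicate 1, F3, VEGFA, EREG and CD44 without empty vector replicate 1, and F3, ITGA6, EREG and CD44 without empty vector replicate 2. With 1 library left out, the log2 fold changes of F3, ITGA6, VEGFA, EREG and CD44 stayed between -0.66 and -0.495. The number called lower then moved over all genes tested as well as among the targets. A change in the number of targets called therefore cannot be read as a trait of the targets alone.

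Of the 6 matrix metalloproteinase genes listed, often used as readouts of AP-1, MMP1, MMP10, MMP13 and MMP14 were tested and none passed in edgeR. MMP3 and MMP9 did not pass the filter. MMP1 had 12.7 and 14.0 CPM with TINCR-HA-FLAG and 21.5 and 20.0 CPM with the empty vector (log2 fold change -0.64, edgeR adjusted p = 0.111). Without TINCR-HA-FLAG replicate 2, the log2 fold change of MMP1 was -0.71. MMP13 had 122 and 137 CPM with TINCR-HA-FLAG and 142 and 166 CPM with the empty vector, and the urokinase gene PLAU had 102 and 102 CPM with TINCR-HA-FLAG and 114 and 128 CPM with the empty vector. MMP10 had 24.1 and 27.2 CPM with TINCR-HA-FLAG and 23.2 and 27.9 CPM with the empty vector, with overlapping groups.

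Of the 38 target genes 27 had a RefSeq promoter, and 11 of these, or 40.7%, held TGANTCA, beside 9.37% of all genes with a promoter. Such sites can be the reason a gene is reported as an AP-1 target. The share is therefore not independent of how the list was made. Of the 6 called targets with a promoter in the table F3 and IL1A held it, and VEGFA had no entry. IL1A held 4 matches over its 2 promoter entries. Both entries held TGACTCA and TGAGTCA at the same spacing, so these are likely the same sites counted in each entry. SPRR1B, which was not called, held TGAGTCA and TGAATCA. The F3 stretch, chr1:94541958-94541987 on the minus strand and outside the exons of F3, is shown as an example from the called targets. It holds 2 matches, in capitals.
F3: gcggtTGAATCActggggTGAGTCAtccct

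**Figure D4:**
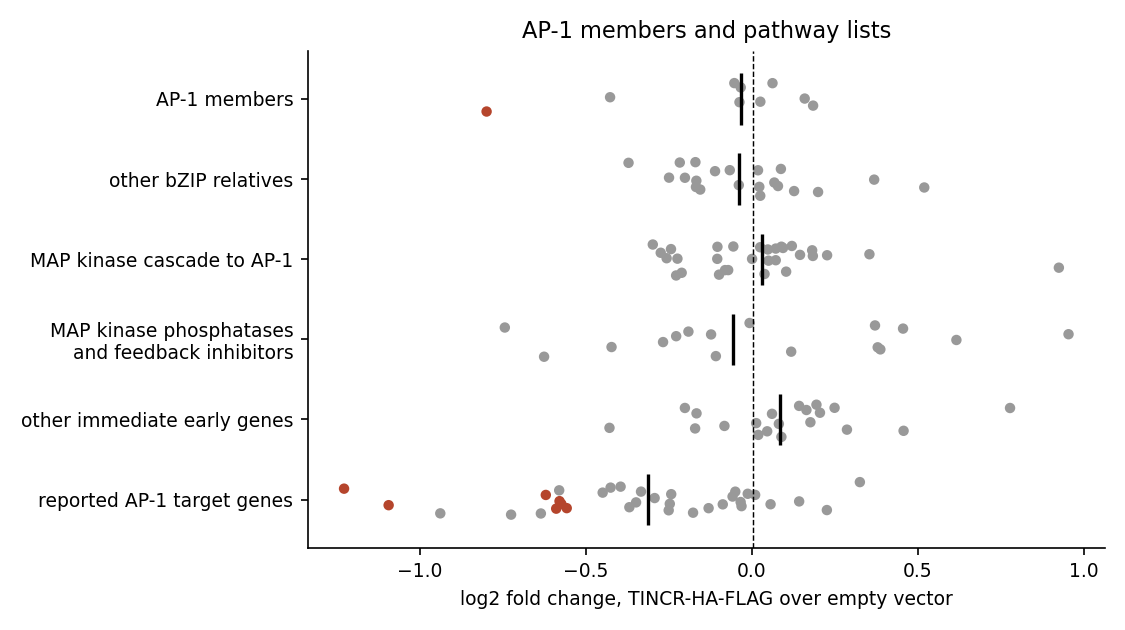
Log2 fold changes, TINCR-HA-FLAG over empty vector, of the tested genes of each list (points, spread vertically for visibility), with the list median as a bar and the median of all genes tested as a dashed line. Red points passed the test: FOSL1 among the members and 7 target genes, all lower. The target list has a median of -0.31, and the medians of the other lists plotted, which leave out the cell type markers, lie between -0.06 and 0.09.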

How the data were processed

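Per the labels' protocols, RNA came from an RNeasy Mini extraction and libraries from a NEBNext Ultra kit. The deposited table holds whole-number read counts per Ensembl gene, not normalized by the authors. Per the submitters' processing notes, the tools included STAR 2.7.9a, bcl2fastq 2.20.0.422 and DESeq2 1.32.0, and the build was GRCh38. The counter, the strand setting and the annotation release: not given in the sources used here. A further 12 library columns fit no sample of the labels and stayed out. By their headers, some of them are further FaDu libraries with the empty vector or TINCR. Columns were matched to titles on cell line, construct and replicate number.

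Counts were normalized by TMM, filtered with filterByExpr and compared by the quasi-likelihood test of edgeR 4.0.16 (robust, non-legacy) in R 4.3.3, with Benjamini-Hochberg adjustment over 18771 genes and a threshold of 0.05. CPM used the TMM library sizes. TPM used GENCODE 29 exon lengths, for 58381 of 60649 rows. Replicates differed beyond counting error (chi-square over its degrees of freedom 16.8 with TINCR-HA-FLAG and 11.7 with the empty vector), so each library was kept as 1 sample. Counting limits cover counting error only. The test was tried on simulated counts with known changes and a common spread for all genes. There edgeR called 20.3% of 1.5-fold, 71.3% of 2-fold and 96.9% of 4-fold changes. A gene that did not pass the test may therefore still have changed.

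The members and all lists were chosen with earlier results of these data known. Named are all members, TINCR, up to 4 called genes of each list with the smallest p or the 2 most expressed where none was called, and the 4 genes nearest to FOSL1. One gene that this rule names is not reported here. VEGFA, EREG, CD44, KRT6A, MMP1, MMP13, MMP10, MMP14, PLAU, DUSP4, DUSP6, the cell type markers, HOOK2, FOSL1P1 and the neighbours of FOSL1 were chosen after their values were seen. Alternatives were DESeq2 1.42.0, RLE size factors, library totals, no filter beyond 1 count, 1 CPM in 2 libraries, legacy dispersions, a replicate block, other gene lengths and leaving out each library.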

Additional observations from a re-analysis of the deposited data

How the results depend on the processing

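FOSL1 stayed negative under every alternative run for it, with log2 fold changes of -0.98 to -0.64 when 1 library was left out, and lost its call only with no filter beyond 1 count (-0.795, edgeR adjusted p = 0.0778), where 37168 genes were tested. No member was then called (0 lower), and 2 target genes were called lower. The other members changed sign when 1 library was left out, apart from FOS and BATF3, and none was called. Their log2 fold changes then ranged from -0.178 to 0.0418 for FOSB, -0.021 to 0.11 for FOSL2, -0.0551 to 0.38 for JUN, -0.18 to 0.20 for JUNB, -0.20 to 0.11 for JUND and -0.17 to 0.07 for ATF2. With 1 library left out, target genes called lower ranged from 4 to 14, and phosphatases and feedback inhibitors called from 0 to 1 in either direction (DUSP4 higher, DUSP7 lower). Over all genes 69 to 226 were then called higher and 45 to 160 lower, beside 85 and 18 in all libraries. A group left with 1 library takes its spread from the other one in these fits. DESeq2 called 131 higher and 59 lower, and the test with no filter called 47 and 6.

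The replicate numbers were entered as a block without evidence from the labels that they pair libraries. Same-numbered libraries deviated together over genes (correlation 0.37), which with 2 pairs is a hint only. The replicate block leaves 1 residual degree of freedom and called 1317 higher and 1316 lower, with FOSL1 the member called. It called 2 targets higher and 20 lower, 1 and 3 other bZIP genes, 2 and 4 MAP kinase cascade genes, 1 and 2 phosphatases and feedback inhibitors and 3 and 2 other immediate early genes. The FOSL1 share of the FOS family was lower by 9.87 to 14.5 percentage points without 1 library, by 12.9 with longest transcript lengths and by 15.3 on reads as counted. At 7 to 16 counts BATF3 is limited by depth.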
